A study of Canis lupus familiaris with 8 samples.

Results

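LGALS9 and LGALS3, the genes of galectin-9 and galectin-3, were followed over the 8 arrays of a study of doxorubicin resistance in a canine mammary adenocarcinoma cell line. They are 2 of 1458 genes that could be named on the array and 2 of the 978 that were tested. Every gene probe whose accession belongs to either gene was taken, which gave 4 probes, 2 for each gene and each spotted once. The genes were chosen by their measured signals across the same arrays, so their levels and differences are given as a description and carry no test.

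CMT-Stylo is the parental line, grown without drug. CMT-Star is a subline raised from it by rising exposure to doxorubicin, a DNA-damaging anthracycline, over months until it resisted 100 nM, and its arrays are labelled as doxorubicin treated. CD44+, CD24-/low, ALDH+ cells were sorted from each line by flow cytometry and are called cancer stem cells (CSC) in the labels, with ALDH standing for aldehyde dehydrogenase. The unsorted lines (Stylo parent, Star parent) and the sorted cells (Stylo CSC, Star CSC) make 4 groups of 2 arrays, and n = 2 holds for every group mean below. All groups descend from 1 tumour line and 1 resistant subline. The labels do not say whether the replicates came from separate cultures, so any spread or p-value refers to these arrays and may be technical.

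Galectins are lectins that bind galactose-containing sugars on cell surface glycoproteins and, inside the cell, sugars exposed on broken vesicles. Galectin-9 is a tandem-repeat galectin, known as an interferon-inducible protein and as a ligand of immune receptors such as TIM-3. Galectin-3 is a chimera-type galectin that crosslinks surface glycoproteins into lattices, is abundant in many epithelial and stromal cells, and has been studied in tumours for its links to adhesion, survival and Wnt signalling.

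Signals were dimmer in Stylo parent than in the other groups. The 75th percentile of its arrays' processed signal, the scanner software's background-corrected intensity, was 88.6 and 69.4, against 297 to 538 elsewhere, and 46.7% to 47.4% of the gene spots were well above background, against 55.5% to 60.7%. Replicate arrays correlated at 0.981 to 0.995 over the 26825 tested probes and arrays of different groups at 0.807 to 0.966. The levels below are log2 processed signals less each array's 75th percentile, so that 0 is that percentile. Because the 75th percentile differed so much, a change of scaling shifts every probe of the Stylo parent arrays together. The median difference of all 26825 tested probes was -0.20 for Star parent against Stylo parent, -0.27 for Stylo CSC against Stylo parent, -0.11 for Star CSC against Star parent and -0.11 for Star CSC against Stylo CSC. When 5 spike-in controls set the scale, the same medians were 0.97, 1.80, 1.53 and 0.62. The arrays of CMT-Stylo shared one slide and those of CMT-Star another, by the barcodes of the file headers. The effect of the line therefore cannot be told apart from that of the slide, while each sorted group shared a slide with its own parent.

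LGALS9 was lowest in Stylo parent, higher in Stylo CSC, higher again in Star parent and highest in Star CSC, and both of its probes gave that order. On the brighter probe, A_11_P0000020054, the processed signal was 15.4 and 13.5 in Stylo parent, 1746 and 1821 in Stylo CSC, 6235 and 3377 in Star parent, and 38929 and 10370 in Star CSC. On the other probe, A_11_P051256, it was 14.1 and 10.3 in Stylo parent, 650 and 609 in Stylo CSC, 1653 and 1697 in Star parent, and 15970 and 12814 in Star CSC. No group overlapped its neighbour on either probe. The order held under all 8 scaling settings computed, except that Stylo CSC and Star parent overlapped on both probes with spike-in scaling.

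The 2 LGALS9 probes were well above background on every array, but in Stylo parent only by a small margin. There the lowest signal that the scanner software set well above background was 8.96 and 7.91, and the highest of 153 negative control spots read 4.66 and 4.20. This level enters the first and second comparisons below, which share the Stylo parent arrays.

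**Figure D1:**
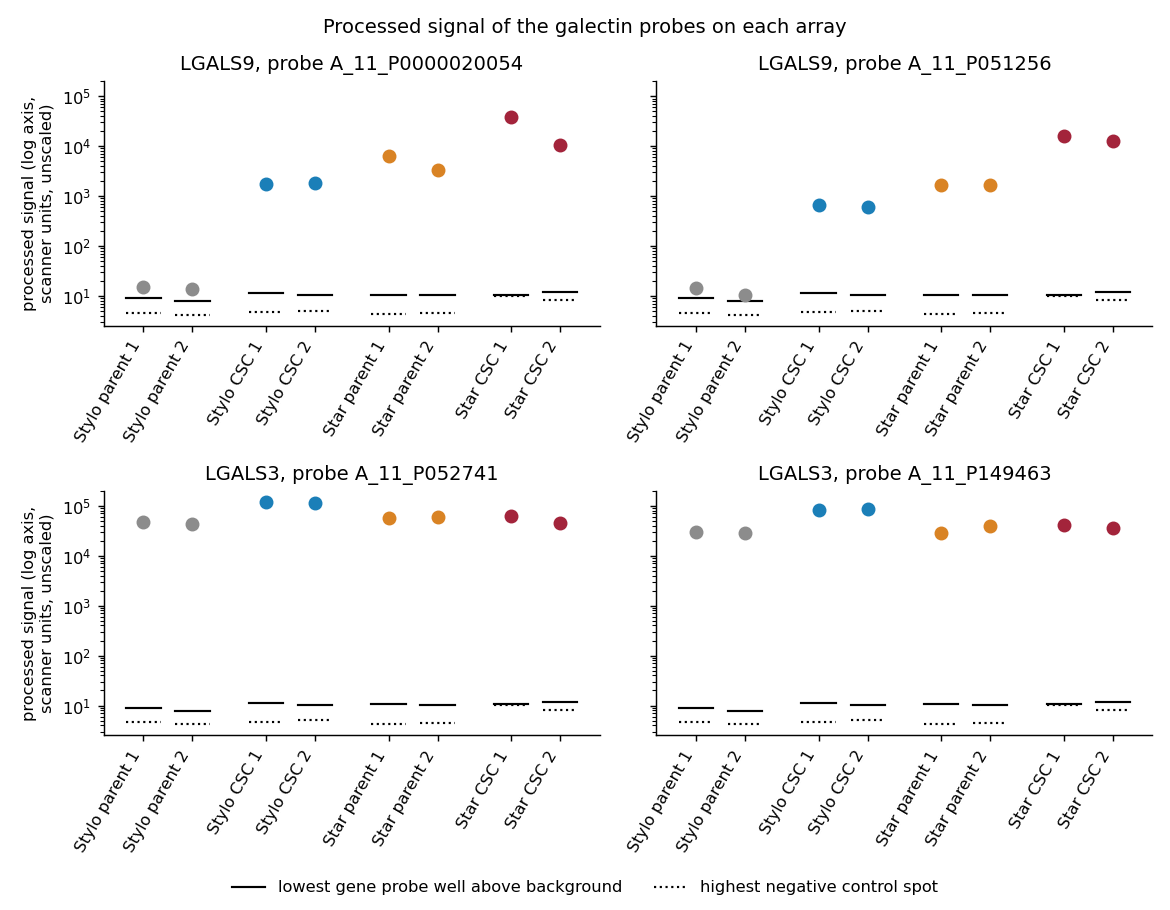
Unscaled processed signal (log axis, scanner units) of each LGALS9 and LGALS3 probe on the 8 arrays, coloured by group, with the lowest signal well above background (solid) and the highest negative control spot (dotted) on each array. LGALS9 lies at 10.3 to 15.4 on the Stylo parent arrays and at 609 or more on all others, while LGALS3 lies at 27926 or more on every array.

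In the resistant line, Star parent against Stylo parent, LGALS9 differed by 6.15 ± 0.55 (log2 difference ± SE of the fit), or 70.9-fold, on the brighter probe. The other probe gave 4.95 ± 0.11, or 30.9-fold. Over the 8 scaling settings the first probe ran from 4.02 with normexp background correction to 8.31 without scaling, and the second from 3.04 to 7.11. A call here means a Benjamini-Hochberg adjusted p under 0.05 in limma over all tested probes together with a difference of at least 2-fold. Both LGALS9 probes met it as higher, which 24.6% of all tested probes did, and both LGALS3 probes met it as lower, which 31.9% did. Since the signals of all 4 groups chose the genes, nothing is read from these calls or from those of the members in any comparison below.

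In the sorted cells of the parental line, Stylo CSC against Stylo parent, LGALS9 differed by 5.00 ± 0.55 on the brighter probe, a 31.9-fold difference. It differed by 3.75 ± 0.11, or 13.5-fold, on the other. The ranges over the scaling settings were 3.10 to 7.07 and 1.90 to 5.83. Both probes were called higher, as were 21.9% of tested probes, and no LGALS3 probe was among the 32.0% called lower. Here too the calls repeat the values that chose the genes.

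In the sorted cells of the resistant line the probes of LGALS9 differed in precision. For Star CSC against Star parent, A_11_P051256 gave 2.58 ± 0.11, a 5.99-fold difference, and was called. A_11_P0000020054 gave 1.62 ± 0.55, or 3.07-fold, and was not. Without Star CSC replicate 1 the latter value was 0.77, and without Star CSC replicate 2 it was 2.47. Over all tested probes 3.20% were called higher and 6.51% lower in this comparison, and no LGALS3 probe was called.

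Between the sorted populations, Star CSC against Stylo CSC, LGALS9 differed by 2.77 ± 0.55 (6.82-fold) on the brighter probe and by 3.78 ± 0.11 (13.8-fold) on the other. Without Star CSC replicate 1 the first value was 1.92 and without replicate 2 it was 3.62. Both LGALS9 probes were called higher, as were 12.5% of tested probes, and both LGALS3 probes lower, as were 17.0%, and as above nothing is read from this.

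The step from parent to sorted cells in LGALS9 was smaller in CMT-Star than in CMT-Stylo under the main scaling. The difference of the steps was -3.38 ± 0.78 on A_11_P0000020054 and -1.17 ± 0.16 on A_11_P051256, but with normexp the second turned to 0.80 and the first was -1.39. Of all tested probes 27.9% were called higher and 24.0% lower in this contrast, both LGALS9 probes among the latter, and nothing is read from that since the contrast uses the arrays that chose them.

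The spread of A_11_P0000020054 came from CMT-Star. Its Star CSC replicates differed by 1.70 on the log2 scale, a 3.75-fold gap in unscaled signal, and 1.22% of the 24766 probes well above background on both of those arrays differed by as much. Its Star parent replicates differed by 0.72, which 3.93% of 24899 probes reached. In Stylo parent and Stylo CSC its replicates differed by 0.16 and 0.12, close to the medians of all such probes, 0.17 and 0.09. The other LGALS9 probe differed between replicates by 0.032 to 0.206 in every group. The residual SD was 0.66 for the first probe and 0.09 for the second.

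No spot of either gene carried an outlier flag and none was saturated. The LGALS9 probes, read on the same array, differed by 0.13 and 0.39 in Stylo parent, 1.42 and 1.58 in Stylo CSC, 1.92 and 0.99 in Star parent, and 1.29 and -0.31 in Star CSC (log2, first less second). Only on Star CSC replicate 2 did the usually brighter probe read below the other. The LGALS3 probes differed by 0.34 to 0.98, always the same way. Over the 8 arrays the probes of LGALS9 correlated at 0.970 and those of LGALS3 at 0.984 (Pearson, a description over 4 groups of 2 arrays).

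**Figure D2:**
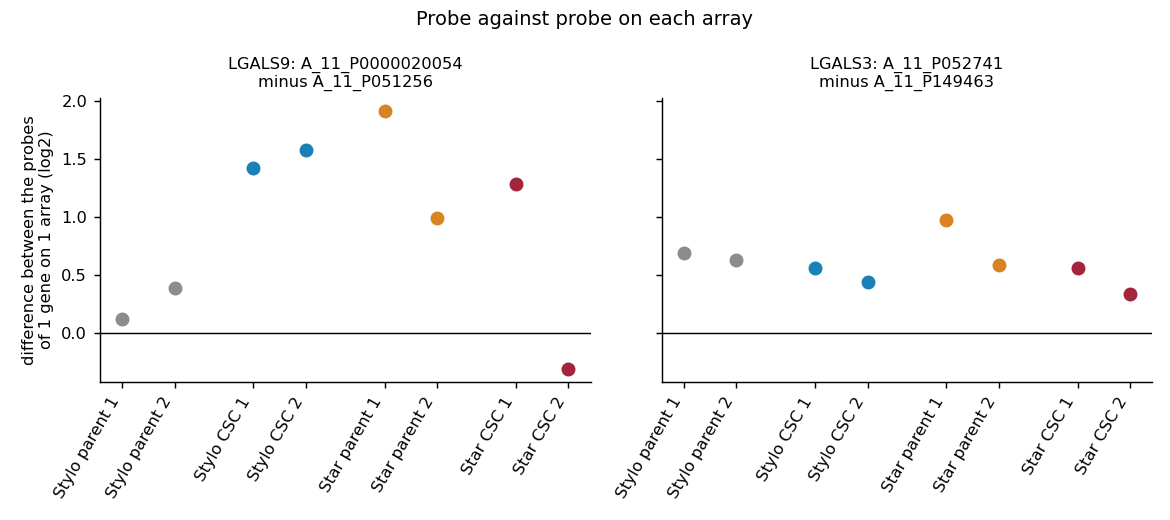
Difference between the probes of 1 gene on each array (log2 level of the first less the second), for LGALS9 on the left and LGALS3 on the right, coloured by group. LGALS3 stays between 0.34 and 0.98, and LGALS9 runs from -0.31 on Star CSC replicate 2 to 1.92 on Star parent replicate 1.

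LGALS3 was bright on every array, and its differences between groups were smaller than those of LGALS9. On the brighter probe, A_11_P052741, the processed signal was 47220 and 43168 in Stylo parent, 120574 and 114173 in Stylo CSC, 56930 and 58635 in Star parent, and 60866 and 45747 in Star CSC. On A_11_P149463 it was 29163 and 27926 in Stylo parent, 81577 and 84159 in Stylo CSC, 28952 and 38884 in Star parent, and 41305 and 36065 in Star CSC. In these unscaled signals Stylo CSC stood above the other 3 groups, which overlapped in part.

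After scaling to the 75th percentile the order was different. The levels of A_11_P052741 were 9.06 and 9.28 in Stylo parent, 8.60 and 8.59 in Stylo CSC, 7.26 and 7.47 in Star parent, and 6.82 and 6.62 in Star CSC. Those of A_11_P149463 were 8.36 and 8.65, 8.04 and 8.15, 6.28 and 6.87, and 6.27 and 6.26 in the same groups. Each group then stood apart from its neighbours, though on A_11_P149463 the Star groups were separated by only 0.0079. With quantile normalization, with spike-in scaling and without scaling the order changed and some neighbouring groups overlapped on both probes. On A_11_P149463 the Stylo groups also changed places with median scaling and with normexp.

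Star parent against Stylo parent, LGALS3 differed by -1.81 ± 0.14 (3.50-fold lower) on A_11_P052741 and by -1.93 ± 0.21 (3.81-fold lower) on A_11_P149463, but the first was 0.43 with quantile normalization and 0.36 without scaling. Less the median of all tested probes, the first probe's difference was -1.61 under every setting that shifts an array by a constant, -0.41 with normexp and 0.29 with quantile normalization. The direction between the parental lines thus depended on the scaling.

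The difference between the sorted populations kept its direction under all 8 settings, though these are not 8 separate checks. On A_11_P052741 the deposited matrix and the subtraction of the negative control signal gave -1.88, as the main scaling did. Star CSC against Stylo CSC, LGALS3 differed by -1.88 ± 0.14 (3.67-fold lower) on A_11_P052741, with a range of -1.88 to -0.52, and by -1.83 ± 0.21 (3.55-fold lower) on A_11_P149463, with a range of -1.83 to -0.63. In both cases quantile normalization gave the value nearest 0.

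Within a line, LGALS3 differed by less than 2-fold at the main scaling, and the sign of the difference depended on the scaling. Stylo CSC against Stylo parent, the probes gave -0.57 ± 0.14 and -0.41 ± 0.21 under the main scaling. A_11_P052741 gave 0.71 ± 0.15 with quantile normalization, 1.38 ± 0.19 without scaling and 1.50 ± 0.51 with spike-in scaling. Star CSC against Star parent, the probes gave -0.64 ± 0.14 and -0.31 ± 0.21, and A_11_P052741 gave 0.99 ± 0.51 with spike-in scaling. The steps differed between the lines by -0.069 ± 0.193 on A_11_P052741 and 0.10 ± 0.30 on A_11_P149463 at the main scaling. With quantile normalization they differed by -0.94 ± 0.21 and -0.63 ± 0.29, with normexp by -0.54 ± 0.16 and -0.41 ± 0.23, and without scaling by -1.51 ± 0.27 and -1.34 ± 0.28.

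**Figure D3:**
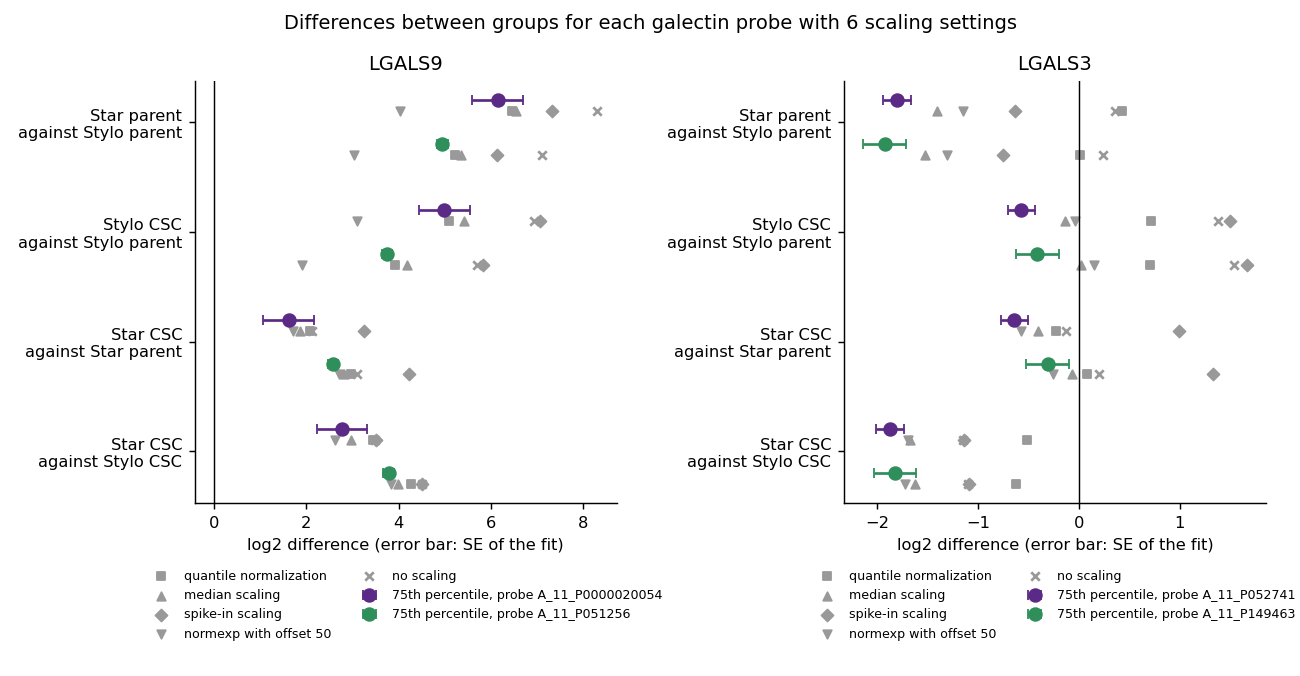
Log2 difference between groups for each LGALS9 and LGALS3 probe, with circles for the main scaling (75th percentile, error bars the SE of the fit) and grey marks for 5 other settings. All marks of LGALS9 lie above 0, while those of LGALS3 lie on both sides of 0 except for Star CSC against Stylo CSC.

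Of the 13 other family members looked for, LGALS8, LGALS4 and LGALS12 had a named probe. LGALS8, whose product marks damaged endosomes, gave levels between -0.39 and 1.58 on its 2 probes and was not called in any of the 4 comparisons between groups. On its brighter probe it differed by 0.035 ± 0.114 for Star parent against Stylo parent, -0.37 ± 0.11 for Stylo CSC against Stylo parent, 0.46 ± 0.11 for Star CSC against Star parent and 0.86 ± 0.11 for Star CSC against Stylo CSC. The last had a limma adjusted p of 0.00152 but lay under 2-fold, and it was called with median scaling, at 1.07. With spike-in scaling LGALS8 was called higher in all 4, and its second difference turned positive there and with median scaling (0.062).

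LGALS12, a galectin best known from adipocytes, went the other way from LGALS9 between the parental lines. Its signal was 26.9 and 29.4 in Stylo parent, 27.7 and 27.4 in Stylo CSC, 4.76 and 4.03 in Star parent, where neither array was well above background, and 17.6 and 12.1 in Star CSC, where 1 of 2 was. It was at least 11.9-fold lower in Star parent than in Stylo parent (limma adjusted p 7.17e-06). For a probe not well above background in 1 group, such a bound sets the bright group against the higher of the probe's own signal and the array's lowest signal well above background. These bounds are taken at the main scaling, which raises the dim Stylo parent arrays relative to the others. Unscaled, the LGALS12 bound would be smaller, since the lowest signals well above background in Star parent were 10.7 and 10.5. LGALS12 fell by 1.98 ± 0.19 in Stylo CSC against Stylo parent (adjusted p 0.000198), a difference of 0.09 with spike-in scaling. It fell by 1.64 ± 0.19 in Star CSC against Stylo CSC (adjusted p 0.000983), a call lost with normexp and with spike-in scaling. Its rise in Star CSC against Star parent passed the test (adjusted p 0.00816), but no fold can be given from these signals and with normexp the difference was -0.20.

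LGALS4, a galectin of the gut epithelium, was not well above background on either Stylo parent array, where it read 8.64 and 6.88. It read 15.1 and 12.4 in Stylo CSC, 29.4 and 33.9 in Star parent and 37.0 and 35.2 in Star CSC. Its difference of -1.12 ± 0.16 in Stylo CSC against Stylo parent was called (limma adjusted p 0.000969), without a fold since the higher group was below background, and with spike-in scaling it turned to 0.95. In Star CSC against Stylo CSC it differed by 0.68 ± 0.16 (adjusted p 0.0128), under 2-fold and so not called.

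**Figure D4:**
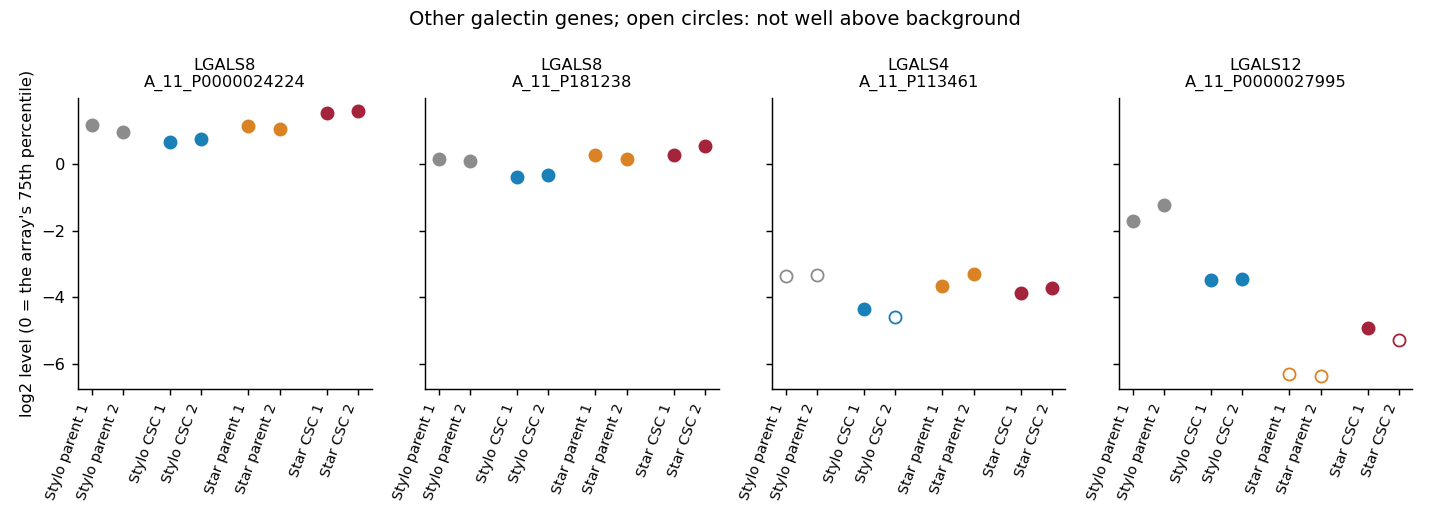
Log2 level (0 is the array's 75th percentile) of both LGALS8 probes, the LGALS4 probe and the LGALS12 probe on the 8 arrays, coloured by group, with open circles where the probe was not well above background. LGALS12 is below background on both Star parent arrays and 1 Star CSC array, and LGALS4 on both Stylo parent arrays and 1 Stylo CSC array.

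On all 8 arrays 728 named genes were well above background, and the 4 whose levels were most like LGALS9 (brighter probe) were TAP1, TAP2 and TAPBP, with Pearson r of 0.986, 0.985 and 0.978, and HTATSF1 at 0.975. TAP1 and TAP2 form the peptide transporter of antigen presentation, TAPBP encodes tapasin, and HTATSF1 a transcription and splicing factor. All 4 had their lowest mean in Stylo parent and their highest in Star CSC. TAP1 rose from a mean level of 1.88 in Stylo parent to 4.15 in Stylo CSC, 4.62 in Star parent and 5.32 in Star CSC.

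The genes most like LGALS3 were ZDHHC8, a palmitoyltransferase (0.995), ACTG1, gamma-actin (0.993), LOC403631 (0.991), SLC3A2, the heavy chain of an amino acid transporter (0.990), and TH, tyrosine hydroxylase (0.990). Each fell in the order Stylo parent, Stylo CSC, Star parent, Star CSC in its means. ACTG1, for one, had mean levels of 9.73, 8.93, 7.32 and 6.75. These correlations describe 8 arrays in 4 groups of 2 that share their scaling, on which the order of LGALS3 depends.

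**Figure D5:**
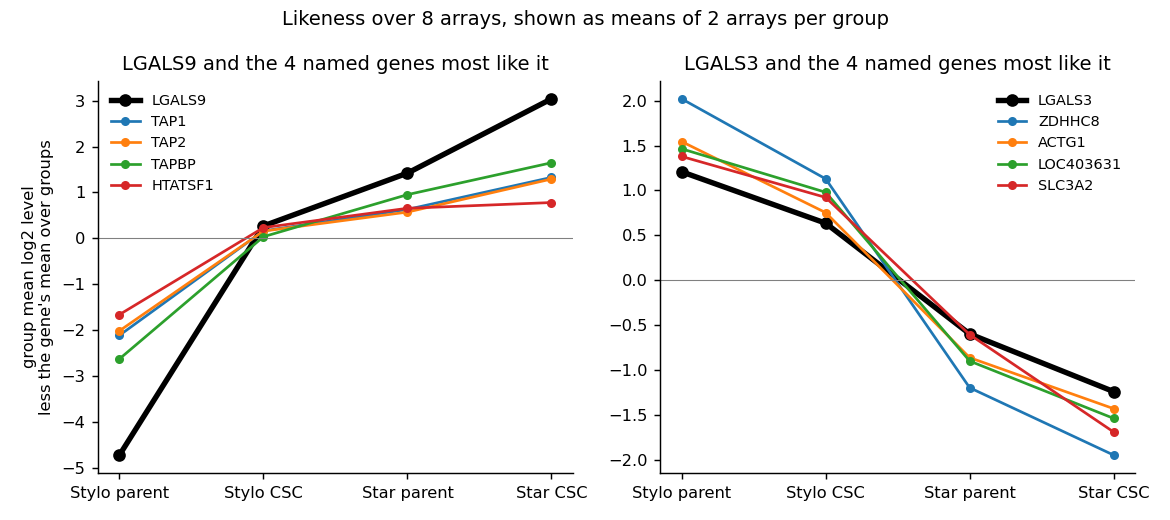
Mean log2 level of each group less the gene's mean over the 4 groups, for LGALS9 (left) and LGALS3 (right) in black with the 4 named genes most like each, at the main scaling. The likeness was measured over the 8 arrays, and the LGALS9 set is lowest in Stylo parent while the LGALS3 set is highest there.

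Genes that meet galectins in the pathway were counted from lists, over the named genes with a tested probe, and few of the listed genes had one. In Star parent against Stylo parent, the 978 named genes tested had 20.6% higher calls, 39.1% lower calls and a median difference of -0.50. The shares were 19.3% and 37.8% (median -0.59) in Stylo CSC against Stylo parent, 5.52% and 7.36% (median -0.10) in Star CSC against Star parent, and 15.6% and 22.5% (median -0.20) in Star CSC against Stylo CSC. The share of calls that were higher moved with scaling over all tested probes. In the order of these 4 comparisons it was 43.6%, 40.7%, 32.9% and 42.4% here, 55.3%, 54.1%, 46.5% and 52.1% with quantile normalization, 56.8%, 57.3%, 58.7% and 55.9% with median scaling, and 79.3%, 98.3%, 99.2% and 81.2% with spike-in scaling. With normexp the first 2 were 23.7% and 24.1%. In the same order, spike-in scaling called 395, 593, 788 and 236 of the 978 named genes higher and 168, 15, 6 and 93 lower. Normexp called 120, 136, 39 and 85 of them higher and 418, 360, 34 and 167 lower. The list counts given below for these settings stand beside those numbers.

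Interferon response genes, a response in which LGALS9 is known to be induced, had 7 of 44 listed members tested. Of these 4 were higher and none lower in Star parent against Stylo parent (median 1.43), 3 and none in Stylo CSC against Stylo parent (0.39), 6 and none in Star CSC against Star parent (1.78), and 6 and none in Star CSC against Stylo CSC (1.70). With normexp, which adds an offset of 50 to every corrected signal, the counts in the first 2 were 2 higher with 2 lower and 1 higher with 2 lower, and 4 with none in the other 2. The 4 higher in Star parent were MX1, OAS1, CXCL10 and EIF2AK2, and the 3 higher in Stylo CSC were MX1, CXCL10 and EIF2AK2. CXCL10, an interferon-induced chemokine, and EIF2AK2, the kinase PKR, had negative differences with normexp in both comparisons (CXCL10 -0.79 and -0.23, EIF2AK2 -0.02 and -0.33). OAS1, an oligoadenylate synthetase, rose by 1.63 ± 0.19 in Star parent (limma adjusted p 0.000376). MX1, an antiviral GTPase, was not well above background in Stylo parent. It was at least 58.6-fold higher in Star parent (limma adjusted p 3.47e-06) and at least 33.2-fold higher in Stylo CSC (1.24e-05). MX1 rose by 3.05 ± 0.09 in Star CSC against Star parent (adjusted p 0.000137) and by 3.87 ± 0.09 in Star CSC against Stylo CSC (9.75e-06). OASL, an oligoadenylate synthetase-like antiviral protein, exceeded its Star parent level in Star CSC by at least 12.7-fold (adjusted p 0.00554) and its Stylo CSC level by at least 10.8-fold (0.0017).

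Innate and NF-kB related genes, with cytokines and chemokines among them, had 8 of 24 members tested. In Star parent against Stylo parent 3 were higher and 2 lower (median 0.14), and in Stylo CSC against Stylo parent 6 were higher and none lower (median 2.61). In Star CSC against Star parent 2 were higher and 1 lower (median 0.55), and in Star CSC against Stylo CSC 1 was higher and 4 lower (median -1.77). With spike-in scaling the counts were 4 and 2, 8 and none, 5 and none, and 1 and 4, and with normexp 2 and 3, 4 and none, 2 and 1, and 1 and 5. CCL2, a monocyte chemokine, rose by 2.96 ± 0.11 in Stylo CSC against Stylo parent (limma adjusted p 1.25e-05) and fell by 4.37 ± 0.11 in Star CSC against Stylo CSC (1.09e-05). NFKB1, which encodes an NF-kB subunit, rose by 2.26 ± 0.11 in the first of these (adjusted p 1.68e-05) and fell by 1.37 ± 0.11 in the second (0.000234), the latter call lost with spike-in scaling. CXCL8, the neutrophil chemokine, fell by 5.28 ± 1.30 in Star CSC against Stylo CSC (adjusted p 0.0155) and fell by 4.42 ± 1.30 in Star parent against Stylo parent (0.021). PTGS2, the inducible cyclooxygenase, was lower in Star parent against Stylo parent by 5.52 ± 1.59 (adjusted p 0.0196), with 1 of 2 Star parent arrays well above background.

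The other calls in these comparisons were in TLR2, CCL5, HIF1A and IL6. TLR2, an innate receptor, was at least 3.33-fold higher in Stylo CSC than in Stylo parent (limma adjusted p 1.25e-05) and at least 1.43-fold higher in Star parent (6.16e-06), where with normexp it differed by -0.41. CCL5, a T cell chemokine, rose by 2.67 ± 0.25 in Star CSC against Star parent (adjusted p 0.00187) and by 1.13 ± 0.25 in Star CSC against Stylo CSC (0.00985). HIF1A, the hypoxia-inducible transcription factor, rose by 1.48 ± 0.09 in Star parent against Stylo parent (adjusted p 2.42e-05) and by 1.15 ± 0.09 in Stylo CSC (7.89e-05). IL6, an inflammatory cytokine, was at least 5.89-fold higher in Stylo CSC than in Stylo parent (4.06e-05). IL6 fell by 2.17 ± 0.23 in Star CSC against Stylo CSC (adjusted p 0.000636) and rose by 2.06 ± 0.23 in Star CSC against Star parent (0.00295), where CCL2 fell by 1.02 ± 0.11 (0.00275) but was at 0.61 with spike-in scaling. CCL5 was also at least 9.57-fold higher in Stylo CSC than in Stylo parent (5.42e-05) and at least 3.31-fold higher in Star parent (0.000503), the latter at -0.14 with normexp.

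Surface ligands and receptors of galectins had 13 of 48 members tested. In Star parent against Stylo parent 4 were higher and 2 lower (median 0.29), and in Stylo CSC against Stylo parent 3 were higher and 3 lower (median -0.64). In Star CSC against Star parent none was higher and 1 lower (median -0.33), and in Star CSC against Stylo CSC 2 were higher and 1 lower (median -0.20). With spike-in scaling the counts in this order were 7 and none, 9 and none, 9 and none, and 2 and 1, and with normexp 2 and 4, 3 and 5, none and none, and none and 1. CD44, the hyaluronan receptor used in the sort, rose by 1.08 ± 0.14 in Star parent against Stylo parent (limma adjusted p 0.000582). ALCAM, an adhesion molecule, rose by 1.43 ± 0.26 there (adjusted p 0.00302) and by 1.43 ± 0.26 in Stylo CSC against Stylo parent (0.00315). CEACAM1 and KDR were also called higher in Star parent against Stylo parent, both from below background in Stylo parent and both below 0 with normexp (-0.71 and -0.83).

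CD47, the "do not eat me" signal, fell by 2.00 ± 0.11 in Star parent against Stylo parent (limma adjusted p 1.65e-05) and by 2.11 ± 0.11 in Stylo CSC against Stylo parent (2e-05), the differences being -0.83 and -0.036 with spike-in scaling. CD274, which encodes PD-L1, fell by 1.55 ± 0.13 (7.74e-05) and 1.74 ± 0.13 (6.08e-05) in the same comparisons, with -0.38 and 0.33 on the spike-in scale. THY1, a glycoprotein of fibroblasts and stem cells, rose by 2.73 ± 0.13 in Stylo CSC against Stylo parent (1.83e-05) on its brighter probe, but its other probe was called lower there. THY1 also fell by 2.83 ± 0.13 in Star CSC against Stylo CSC (5.32e-05).

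CD40 rose in Stylo CSC from below background (at least 1.21-fold, limma adjusted p 0.0219) but was at -0.87 with normexp. VWF, von Willebrand factor, fell by 1.08 ± 0.31 in the same comparison (0.0203) but was at 0.99 with spike-in scaling. ITGB3, an integrin subunit, fell by 1.28 ± 0.22 in Star CSC against Star parent (0.0104) but was at 0.36 with spike-in scaling. MUC1, a mucin that binds galectin-3, exceeded its Stylo CSC level in Star CSC by at least 10.2-fold (0.00208). KDR was called higher there too, at least 1.62-fold (0.00224), but differed by -0.13 with normexp.

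The remaining lists had 4 tested members each. Of the 42 genes of N-glycan branching and lactosamine synthesis, SLC35A3, a Golgi sugar-nucleotide transporter, was the only call. It fell by 1.59 ± 0.33 in Star parent against Stylo parent (limma adjusted p 0.0049) and by 1.65 ± 0.33 in Stylo CSC against Stylo parent (0.00434), where with spike-in scaling it was at 0.42. The list medians over the 4 comparisons were 0.19, 0.16, -0.077 and -0.0077. With spike-in scaling 3 of the 4 genes were called higher in each of the first 3 comparisons and none in the last.

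Intracellular partners of galectin-3 (23 listed) counted 1 higher and 2 lower in Star parent against Stylo parent (median -0.48), 1 and none in Stylo CSC against Stylo parent (0.48), none in either direction in Star CSC against Star parent (0.17), and 1 and 1 in Star CSC against Stylo CSC (-0.67). With spike-in scaling the counts were 2 and none, 4 and none, 4 and none, and 1 and 1. BCL2, the survival factor, rose by 2.03 ± 0.22 in Star parent against Stylo parent (limma adjusted p 0.000306) and by 2.25 ± 0.22 in Star CSC against Stylo CSC (0.000555). CTNNB1, beta-catenin, fell by 1.65 ± 0.52 (0.0277) and 2.03 ± 0.52 (0.0184) in these, the first call lost under 4 of the 5 other settings and the second with quantile normalization. NKX2-1, a thyroid and lung transcription factor, fell by 1.79 ± 0.10 in Star parent against Stylo parent (1.63e-05), a call lost with spike-in scaling (-0.61). TCF4 rose by 1.28 ± 0.16 in Stylo CSC against Stylo parent (0.000661), a call lost with normexp (0.28), and it stands in the list only because an old name of TCF7L2 is spelled the same.

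Lysosomal genes and genes of the response to damaged endolysosomes were in 1 list (40 listed). It counted 2 higher in Star parent against Stylo parent (median 1.16) and 1 higher in Stylo CSC against Stylo parent (0.40). There was 1 lower in Star CSC against Star parent (-0.55) and 1 higher in Star CSC against Stylo CSC (-0.012). All these calls were in the lysosomal genes NPC1, CTSD and NPC2. With spike-in scaling 4, 4, 2 and 1 were higher and none lower. NPC1, a lysosomal cholesterol transporter, rose by 2.93 ± 0.27 in Star parent (limma adjusted p 0.000132) and by 2.50 ± 0.27 in Stylo CSC (0.000306), each against Stylo parent. CTSD, cathepsin D, rose by 1.64 ± 0.24 in Star parent against Stylo parent (0.00113) and fell by 1.16 ± 0.24 in Star CSC against Star parent (0.0184), the latter at 0.47 with spike-in scaling. NPC2, the soluble partner of NPC1, was 2.14-fold higher in Star CSC than in Stylo CSC (0.00121), a call lost with normexp, where the log2 difference was 0.86.

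Galectins are also made by macrophages, so markers of other cell types were read beside LGALS9. Of 16 macrophage and myeloid markers 5 had a probe. None of the 5 was well above background on either array of Stylo parent or Stylo CSC, 1 (CD86) was on both arrays in Star parent, and 2 (TYROBP and CD86) were in Star CSC, with 1 more on a single Star CSC array. Their summed level, as a multiple of each array's 75th percentile, was 0.157 to 0.159 in Stylo parent, 0.058 to 0.061 in Stylo CSC, 0.118 to 0.151 in Star parent and 1.04 to 1.07 in Star CSC. In both Stylo groups these sums are background signal divided by the 75th percentile, so no order is read from them. The sum was highest in Star CSC, as LGALS9 was. It was led there by CD86, whose mean level was -0.039, while that of TYROBP was -5.11. The part of myeloid RNA in the LGALS9 levels was not tested.

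Of 11 lymphocyte markers 5 had a probe, and at most 1 (CD79A in both Star groups) was above background on both replicates of a group. All 6 measured fibroblast markers were above background in every group, with sums of 1649 to 1895 in Stylo parent, 1042 to 1082 in Stylo CSC, 325 to 387 in Star parent and 260 to 284 in Star CSC. The sum is led by S100A4, whose mean level in Stylo parent was 10.72. In Stylo CSC against Stylo parent S100A4 (-1.96 ± 0.11) and PDGFRB (-1.09 ± 0.37) were called lower, while COL1A1 (2.42 ± 0.12), COL1A2 (3.03 ± 0.23), DCN (1.65 ± 0.10) and the brighter THY1 probe (2.73 ± 0.13) were called higher. In Star parent against Stylo parent 4 were called lower (COL1A1, DCN, PDGFRB and S100A4) and COL1A2 higher (2.14-fold). Of 8 measured epithelial markers 3 were above background on both arrays in Stylo parent, 4 in Stylo CSC, 4 in Star parent and 6 in Star CSC. Of these, 5 were not above background in Stylo parent (KRT19, CDH1, ESR1, MUC1 and OCLN), while KRT14 and CLDN3 had their highest means there and were 3.99-fold and 19.2-fold lower in Star parent (CLDN3 above background on 1 of 2 Star parent arrays). TJP1 was called 2.65-fold higher in Star parent than in Stylo parent, and CDH1 was called higher there from below background. In Stylo CSC against Stylo parent CDH1 was at least 6.13-fold higher and TJP1 2.54-fold higher, while CLDN3 was 4.79-fold lower. OCLN was called lower in both comparisons and KRT19 in the second, neither well above background in the groups compared. The epithelial sums were 4.86 to 5.62 in Stylo parent, 5.75 in Stylo CSC, 4.29 to 4.87 in Star parent and 4.39 to 4.66 in Star CSC. Of 5 adipocyte markers 2 had a probe. LEP was above background in every group and ADIPOQ on both arrays in Stylo parent only. Against Stylo parent, ADIPOQ was called lower in Star parent (3.84-fold, 1 of 2 arrays above background) and Stylo CSC (at least 3.81-fold), while LEP was not called. Endothelial and erythroid lists had 2 of 7 and 1 of 5 markers with a probe. The part of these cell types in the galectin levels was not tested. Of 7 genes listed as sort markers 4 had a probe, among them PROM1, which is not part of the sort described above. CD44 and ALDH3A1 were above background in every group, PROM1 in all but Stylo parent and ALDH1A1 in Star CSC only. Against the parent of the same line, ALDH3A1 was called lower in Stylo CSC (-1.69 ± 0.19) and Star CSC (-1.51 ± 0.19). PROM1 was called higher in both (at least 4.57-fold in Stylo CSC, 1.55 ± 0.39 in Star CSC). ALDH1A1 was called higher in Star CSC, by at least 3.09-fold (limma adjusted p 0.0171). It was called lower in Stylo CSC, but was not well above background there or in Stylo parent. CD44 differed by 0.99 ± 0.14 in Stylo CSC and -0.89 ± 0.14 in Star CSC, under 2-fold and not called.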

How the data were processed

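Per the file headers, the authors' deposited scanner files hold, for every spot, an intensity (processed signal, median signal and median background) and quality flags. The submitters' processing notes name Agilent Feature Extraction, version 11.5.1.1. The deposited series matrix gives log2 values, per the file headers. The genome build is not given in the sources used here. Control spots were left out, and flagged outlier spots too unless a probe had no unflagged spot. The log2 processed signal was centred on the array's 75th percentile. None of the spots was saturated. Of 43603 gene probes, 26825 passed the filter (some group with both arrays well above background) and were tested. Symbols came from a RefSeq gene table used for names only, which named 2353 probes for 1458 symbols, so no coordinates are given. Where a gene had several tested probes, the one with the highest mean stands for it.

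limma 3.58.1 in R 4.3.3 fitted the 4 group means on all 8 arrays (lmFit and eBayes), and the procedure was tested on simulated data. All p-values are two-sided and adjusted over all tested probes by Benjamini-Hochberg. Only 2 arrays per group limit the precision. The members, the lists and the markers were chosen with earlier results of these data known. Named besides the members were other galectins with a probe, in each list and comparison the largest called rise and fall and any member needed to account for a count of 5 or fewer, and the 5 genes most like each member, of which 1 is not reported here. Same-numbered replicates deviated together with correlations of -0.07 to 0.07, and the fit has no replicate block. The files hold no mean signal, so normexp used the median signal, with the array's median background where the local background was flagged. Alternatives covered scaling, background correction, the deposited matrix, filters, the other probe, the arrays in the fit and each array left out.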

Additional observations from a re-analysis of the deposited data

Results flagged for a closer look

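The effect of sorting on LGALS12 differed between the lines by limma's interaction term. The effect in CMT-Star less that in CMT-Stylo was 3.21 ± 0.27 on the log2 scale (adjusted p 0.000196). It is a fitted value, not a measured size, since the signals of both Star parent arrays and 1 Star CSC array were not well above background. With normexp LGALS12 gave 1.14.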

How the results depend on the processing

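LGALS9 kept its direction under every setting computed for the 4 comparisons between groups, and LGALS3 kept it only for Star CSC against Stylo CSC. In the order Star parent against Stylo parent, Stylo CSC against Stylo parent, Star CSC against Star parent and Star CSC against Stylo CSC, LGALS3 was 0.43, 0.71, -0.23 and -0.52 with quantile normalization, -1.41, -0.14, -0.41 and -1.67 with median scaling, -0.63, 1.50, 0.99 and -1.14 with spike-in scaling, and 0.36, 1.38, -0.13 and -1.15 without scaling. With normexp it was -1.15, -0.040 and -1.69 in the first, second and last. The SE of these LGALS3 differences was 0.51 with spike-in scaling, against 0.14 at the main scaling. In the same order LGALS9 was 7.32, 7.07, 3.26 and 3.50 with spike-in scaling. It was 4.02 and 3.10 with normexp and 8.31 and 6.95 without scaling in the first 2, and in the last 3.44 with quantile normalization and 3.49 without scaling. The other probe gave LGALS9 values of 4.95, 3.75, 2.58 and 3.78, and LGALS3 values of -0.41 and -0.31 within the lines, where the mean of both LGALS3 probes gave -0.48 in Star. The negative control subtraction, the mean of both probes and the setting without scaling were chosen after seeing the data.

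Leaving out 1 array at a time, LGALS9 ran from 0.77 to 2.47 for Star CSC against Star parent and from 1.92 to 3.62 for Star CSC against Stylo CSC, the extremes being without either Star CSC array. Called probes numbered 2604 for Star CSC against Star parent, and 21390 with spike-in scaling, 1130 with normexp and 1350 when only probes well above background on all 8 arrays were tested. For Star CSC against Stylo CSC 7896 were called, and 4042 with normexp and 4591 with that filter. The contrast of the sorting effects called 13934, and 8265 with spike-in scaling, 9257 with normexp and 21865 with no filter on dim probes. With no filter 26691 in place of 15154 and 28575 in place of 14456 were called in the first 2 comparisons. The cause of these changes was not tested, beyond the number of probes the filters tested. With the replicate block the differences kept their values, and 2513 probes were called for Star CSC against Star parent. The replicate numbers share only a label. LGALS9 is limited by its signal over background in Stylo parent and by the gap between the Star CSC arrays.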
